A study of Mus musculus with 2 samples.

Results

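The 7 hairpin loci described here are Mir9-2, Mir9-3, Mir124a-1, Mir124a-2, Mir124a-3, Mir137 and Mir92b, the microRNA genes of neural progenitors and young neurons. They were selected by gene symbol from 1973 loci, and all 7 had a row in both libraries. The tissue was midbrain of mouse embryos (strain B6NCrl) at embryonic day 13.5, pooled from male and female embryos and described as healthy. Its small RNA, under 30 nt long, was sequenced in 2 biological replicates of 1 group, with no second tissue, age or treatment. The labels list 1 donor record for both replicates and do not say whether their embryos came from separate litters, so the spread between them may in part be technical. Levels are same-strand counts per 1000000 counts assigned to loci (CPM), from 5093743 counts in replicate 1 and 2935841 in replicate 2. A read covers a whole mature microRNA, so no division by gene length was made, and the count of a locus adds up its 5p and 3p strands. In bulk tissue, fewer cells of a type and less of a microRNA per cell cannot be told apart.

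MicroRNAs are short RNAs cut from hairpin precursors, and they repress mRNAs that match their seed, bases 2 to 8 of the mature strand. miR-9 is made by neural progenitors and early neurons and represses progenitor regulators such as Hes1 and Nr2e1. miR-124 is the classical microRNA of neurons and represses Ptbp1 and Rest pathway genes as progenitors leave the cell cycle. miR-137 acts in neural stem cells and maturing neurons, and miR-92b is known from cortical intermediate progenitors, where it represses Eomes.

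The mature strands, from RefSeq on GRCm38.p6, are shown with the seed in capitals because the seed groups the loci into families. RefSeq sequences were matched for 4 of the 7 loci, and none is printed for Mir124a-1, Mir124a-2 and Mir124a-3.
miR-9-5p: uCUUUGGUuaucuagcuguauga
miR-9-3p: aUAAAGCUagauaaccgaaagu
miR-137-5p: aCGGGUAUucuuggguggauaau
miR-137-3p: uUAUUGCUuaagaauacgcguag
miR-92b-5p: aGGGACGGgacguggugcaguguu
miR-92b-3p: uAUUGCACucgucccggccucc
No 2 of these 6 strands shared a seed. The seeds of both miR-137 strands and of miR-92b-5p occurred at 1 locus each in the RefSeq table, those of miR-9 at 3 loci, and that of miR-92b-3p at 7 loci. The strands also differed in base composition: miR-92b-3p was 63.6% G and C, against 34.8% for miR-137-3p and miR-9-5p and a median of 52.2% over 1674 distinct mature sequences.

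Among counted reads, Mir92b and Mir137 were abundant, Mir9-3 was intermediate, and the other 4 loci lay below 10 CPM. Reads that map to more than 1 locus (multimapping reads) are not counted. The miR-9 and miR-124 loci therefore lack their plain mature reads, and their levels are not those of mature miR-9 or miR-124. Together the 7 loci held 1.81% of all counts in replicate 1 (1.80 to 1.82, exact Clopper-Pearson 95% limits) and 1.68% in replicate 2 (1.66 to 1.69), a mean of 1.74% ± 0.0967 (SD, n = 2). Intervals cover counting error only. With multimapping reads added to the denominator only, the mean share was 0.962%. Any multimapping reads from the 7 loci are missing from its numerator. Mir137 and Mir92b made up 97.8% ± 0.0670 of the counts of the 7 loci (SD, n = 2). All 7 loci reached 1 CPM in both replicates, as did 449 of the 1973 loci, 3 reached 100 CPM, as did 202 of all loci, and 2 reached 1000 CPM, as did 88. The median of the 7 mean levels was 9.31 CPM, against 53.0 CPM over the 466 loci with at least 10 counts in total.

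**Figure D1:**
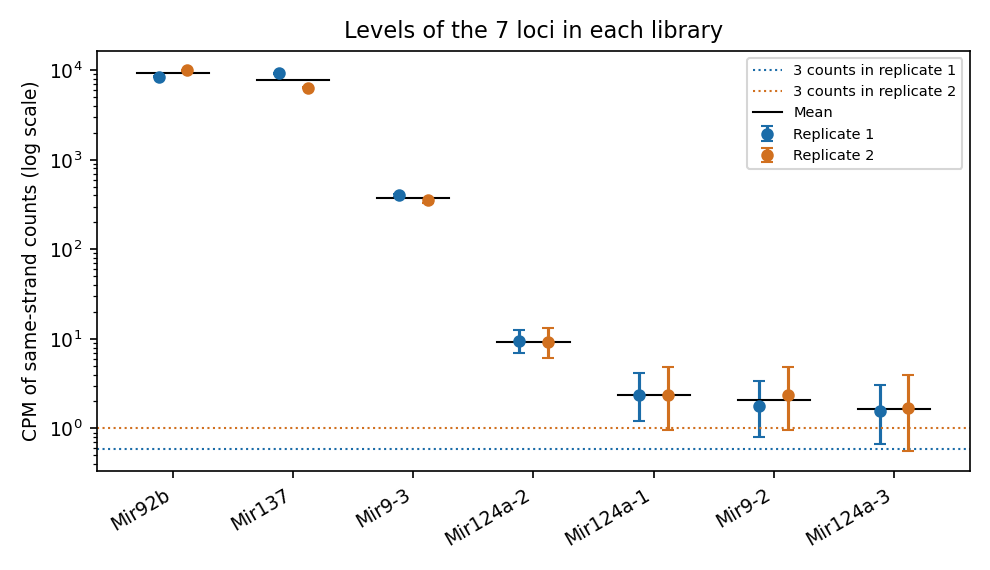
CPM of same-strand counts (log scale) of the 7 loci in replicate 1 (blue) and replicate 2 (orange), with 95% exact counting intervals, the mean as a black line and dotted lines at the level of 3 counts (0.589 and 1.02 CPM). Mir92b (9214 CPM) and Mir137 (7831 CPM) lie highest, Mir9-3 follows at 377 CPM, and the other 4 loci below 10 CPM. Plain mature reads of miR-9 and miR-124 are multimapping and not counted.

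Mir92b, the progenitor-linked locus, had 42992 counts in replicate 1 and 29321 in replicate 2. These were 8440 and 9987 CPM, a mean of 9214 ± 1094 CPM (SD, n = 2), which placed Mir92b at rank 21 of the 1973 loci. Mir137 had 47196 and 18782 counts, or 9265 and 6397 CPM. Its mean of 7831 ± 2028 CPM (SD, n = 2) took rank 25. The range of Mir92b overlapped that of Mir137, so the order of their means lies within the spread between the replicates. The loci next to Mir92b in level were Mir30a (9599 ± 610 CPM) and Mir322 (9564 ± 1020 CPM) above it, and Mir130b (8815 ± 842 CPM) and Mir369 (8590 ± 297 CPM) below it. Those next to Mir137 were Mir369 and Mir181d (7953 ± 2005 CPM) above, and Mir744 (7691 ± 396 CPM) and Mir151 (7414 ± 281 CPM) below. Neighbours closer than their SDs are not ordered by 2 replicates.

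On mm10, Mir92b (ENSMUSG00000076255.2) lies on chromosome 3 from 89227116 to 89227198, minus strand, between genes. The nearest gene is Mtx1, 27 nt away on the same strand, followed by Thbs3 at 278 nt on the plus strand. Mir137 (ENSMUSG00000065569.1) lies on the same chromosome from 118433857 to 118433929, plus strand, and overlaps an exon of the noncoding transcript Gm26871. Gm24155, annotated as a microRNA 791 nt downstream on the same strand as Mir137, had 2 counts in replicate 1 and 0 in replicate 2, where a count of 0 allows up to 1.02 CPM.

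Mir9-3 had 2043 and 1037 counts, or 401 and 353 CPM, a mean of 377 ± 33.8 CPM (SD, n = 2) at rank 142. Its neighbours in level were Mir671 (391 ± 68.1 CPM) and Mir181a-2 (379 ± 43.6 CPM) above and Mir3074-1 (377 ± 21.9 CPM) and Mir339 (364 ± 7.02 CPM) below, all within 1 SD of Mir9-3. Mir9-2 had 9 and 7 counts, or 1.77 and 2.38 CPM, a mean of 2.08 ± 0.437 CPM (SD, n = 2) at rank 405. Mir9-3 thus held 99.4% ± 0.164 of the counts of these 2 loci (SD, n = 2). The ratio of Mir9-3 to Mir9-2 was 227 in replicate 1 (95% exact interval 119 to 497) and 148 in replicate 2 (71.6 to 369).

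These counts are not levels of mature miR-9. Mir9-2, Mir9-3 and a further locus, Mir9-1, encode identical miR-9-5p and identical miR-9-3p strands. A read of the plain mature strand maps to all 3 and is counted at none, since multimapping reads stayed outside the locus counts. They were 34.4% and 37.7% of the counted, unmapped, multimapping and no-feature reads together. In replicate 1 there were 1865 multimapping reads for each read counted at Mir9-2 or Mir9-3, and in replicate 2 there were 2482. How many of them were miR-9 is not given by the tables. The 3 hairpins are shown with the mature arms in capitals, because the bases beside the arms are where a read can be assigned to 1 locus.
Mir9-1: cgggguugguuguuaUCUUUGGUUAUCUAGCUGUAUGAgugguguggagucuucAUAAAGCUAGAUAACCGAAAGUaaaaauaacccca
Mir9-2: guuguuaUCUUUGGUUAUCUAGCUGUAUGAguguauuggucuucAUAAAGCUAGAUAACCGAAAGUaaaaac
Mir9-3: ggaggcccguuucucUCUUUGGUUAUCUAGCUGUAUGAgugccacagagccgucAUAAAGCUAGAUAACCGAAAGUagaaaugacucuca
Mir9-3 differed from both other hairpins at the first base before miR-9-5p, and at the second base after miR-9-3p. Between Mir9-1 and Mir9-2, the identical run around miR-9-5p was 33 nt long, up to the annotated start of the Mir9-2 hairpin, and that around miR-9-3p was also 33 nt. Both exceed the size limit of 30 nt for the RNA in these libraries. A shorter read can still tell Mir9-1 from Mir9-2 if it crosses an edge of the run. On the 3' side the first differing base was base 4 after miR-9-5p and base 6 after miR-9-3p. The runs that Mir9-3 shared with either locus were 26 nt around miR-9-5p and 25 nt around miR-9-3p.

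The same contrast appeared over whole hairpins. Of all windows of 22 nt along Mir9-2, 24 of 51 (47.1%) also occurred in another RefSeq hairpin, against 9 of 69 (13.0%) along Mir9-3. Mir137 had 0 shared windows of 52 and Mir92b 0 of 62. At least 1 shared window was present in 104 of 1005 hairpins (10.3%).

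**Figure D2:**
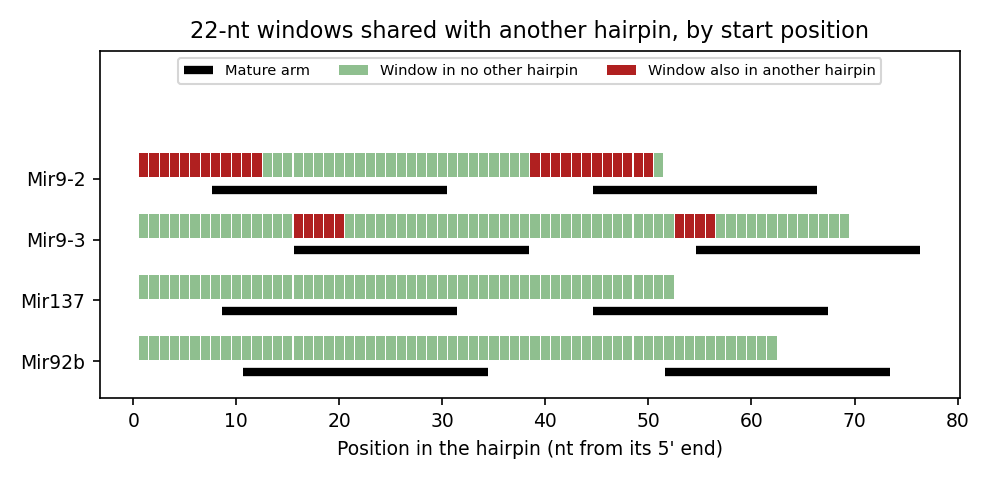
Windows of 22 nt by start position (nt from the 5' end of the hairpin) in Mir9-2, Mir9-3, Mir137 and Mir92b, red where the window also occurs in another RefSeq hairpin and green where it does not, with mature arms as black bars. Mir9-2 has 24 red windows and Mir9-3 has 9, while Mir137 and Mir92b have 0.

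Reads on the strand of Mir9-1 were found in another row. Gm25641, annotated as miR-9b on the minus strand of chromosome 3 from 88215589 to 88215696, lies opposite Mir9-1 (plus strand, 88215598 to 88215686). The Gm25641 row reaches past the Mir9-1 hairpin at both ends, so its counts can include reads from outside that hairpin. It had 0 same-strand counts in both replicates, and 247 and 132 counts on the opposite strand, which is the strand of Mir9-1. Scaled to same-strand totals these were 48.5 and 45.0 CPM, a mean of 46.7 ± 2.50 CPM (SD, n = 2). The row was chosen after its values were seen. Of 63 rows with any opposite-strand count, 9 had more. Mir9-3 counts were 8.27 times these in replicate 1 (95% exact interval 7.24 to 9.48) and 7.86 times in replicate 2 (6.55 to 9.49). The counts on the Mir9-1 strand were in turn 27.4 times those of Mir9-2 in replicate 1 (14.2 to 60.7) and 18.9 times in replicate 2 (8.90 to 47.8). The 3 loci therefore stood in the order Mir9-3, Mir9-1, Mir9-2 in both libraries. Their windows found in no other hairpin had the same order (60, 44 and 27). Mir9-1 and Mir9-2 had 24 shared windows each, so 44 against 27 reflects only the annotated lengths of their hairpins, 89 and 72 nt. The part of sequence in the order of the counts was not tested.

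Mir9-3 (ENSMUSG00000093238.1) lies on chromosome 7 from 79505264 to 79505353, plus strand, in an intron of the noncoding transcript Mir9-3hg. Mir9-2 (ENSMUSG00000065424.1) lies on chromosome 13 from 83738814 to 83738885, plus strand, and overlaps an exon of the noncoding transcript C130071C03Rik. RefSeq also annotates miR-9b strands opposite both loci. On those strands Mir9-3 had 4 and 2 counts and Mir9-2 had 0 in both replicates.

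Of 916 loci with a row and a RefSeq mature sequence, 34 had an identical copy elsewhere for every annotated arm. The RefSeq table is incomplete, so a locus with an unlisted arm can be grouped wrongly here. The shares and the rank given hold for the listed arms only. Among these 34, 5 (14.7%) reached 100 CPM in both replicates and 25 (73.5%) had no count. Mir9-3 was the second highest, after Mir219a-2 of the oligodendrocyte lineage (1704 ± 181 CPM). Of 829 loci with no copied arm, such as Mir137 and Mir92b, 161 (19.4%) reached 100 CPM and 274 (33.1%) had no count. The 53 loci with some arms copied went the other way, as 21 (39.6%) reached 100 CPM and 7 (13.2%) had no count. The part of copied arms in these levels was not tested.

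The 3 miR-124 loci were all low. As background, they encode a single mature microRNA, so its plain mature reads are multimapping reads too. Mir124a-2 had 48 and 27 counts, or 9.42 and 9.20 CPM (mean 9.31 ± 0.160, SD, n = 2). Mir124a-1 had 12 and 7 counts, or 2.36 and 2.38 CPM, and Mir124a-3 had 8 and 5 counts, or 1.57 and 1.70 CPM. The SDs of such small counts can fall below counting error. Mir124a-2 exceeded Mir124a-1 by 4 times in replicate 1 (95% exact interval 2.09 to 8.27) and 3.86 times in replicate 2 (1.64 to 10.5), and it held 69.9% ± 0.960 of the counts of the 3 loci (SD, n = 2). Mir124a-1 and Mir124a-3 did not differ beyond counting error, with ratios of 1.5 (0.564 to 4.23) and 1.4 (0.382 to 5.59), nor did Mir9-2 and Mir124a-1, with 0.75 (0.279 to 1.94) and 1 (0.299 to 3.34).

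**Figure D3:**
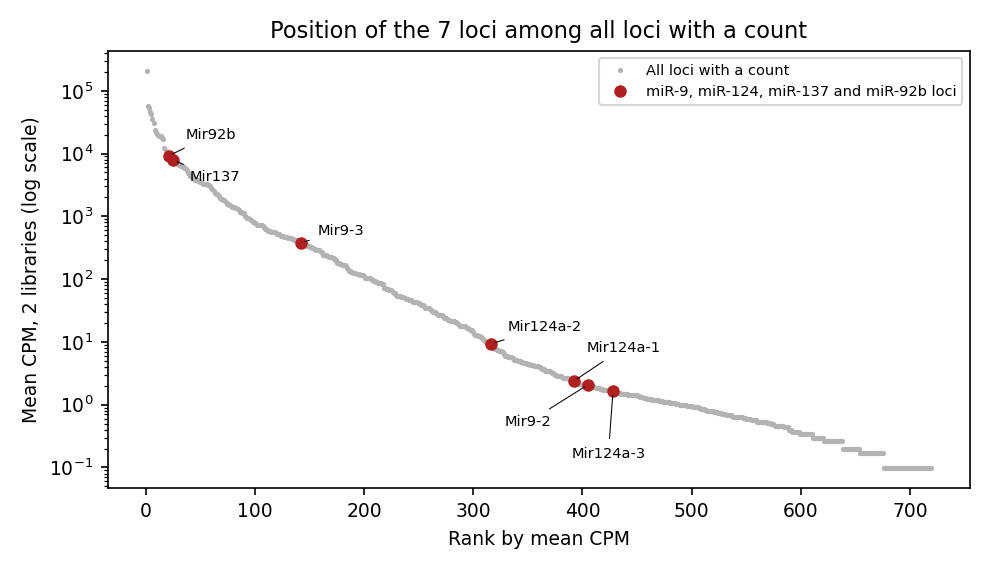
Mean CPM over the 2 libraries (log scale) against rank for all loci with a count (grey), with the 7 loci in red. Mir92b and Mir137 stand at ranks 21 and 25, Mir9-3 at 142, and Mir124a-2, Mir124a-1, Mir9-2 and Mir124a-3 at 316, 392, 405 and 427. Plain mature reads of miR-9 and miR-124 are multimapping and not counted.

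A locus within the annotated span of the same host gene allowed a comparison with Mir124a-1, chosen after its values were seen. Mir124a-1 (ENSMUSG00000065597.1) lies on chromosome 14 from 64590657 to 64590741, plus strand, and overlaps an exon of Mir124a-1hg. Mir3078 begins 443 nt beyond its end on the same strand, within the annotated span of that host. Mir3078 had 193 and 90 counts, or 37.9 and 30.7 CPM, which was 16.1 times the counts of Mir124a-1 in replicate 1 (95% exact interval 9.00 to 31.7) and 12.9 times in replicate 2 (5.99 to 32.9). Plain mature reads of miR-124 are not in the count of Mir124a-1, so the ratio does not compare mature strands. Mir124a-2 (ENSMUSG00000093073.1) lies on chromosome 3 from 17795662 to 17795770, plus strand, and overlaps an exon of Mir124-2hg. Mir124a-3 (ENSMUSG00000065454.1) lies on chromosome 2 from 180894040 to 180894107, plus strand, and overlaps an exon of the noncoding transcript Gm27032 by 3 nt. Mir124a-3 had 8 and 6 counts on the opposite strand, about as many as on its own, and stood at 3.37 CPM with unstranded counts in place of 1.64.

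The seed of miR-92b-3p is shared with a family that includes miR-25 and miR-92a, whose members are thought to reach overlapping sets of mRNAs. The strands are shown with the seed in capitals.
miR-92b-3p: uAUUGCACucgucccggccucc
miR-92a-3p: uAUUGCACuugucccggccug
miR-25-3p: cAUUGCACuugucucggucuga
miR-363-3p: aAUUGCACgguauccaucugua
miR-32-5p: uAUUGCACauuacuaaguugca
miR-367-3p: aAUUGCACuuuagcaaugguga
Compared base by base from the 5' end, miR-92a-3p matched miR-92b-3p at 19 of 21 positions, with the substitutions C10U and C21G, where the base of miR-92b-3p is given first. miR-25-3p matched at 16 of 22 positions, miR-32-5p at 11, and miR-363-3p and miR-367-3p at 10 each.

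Mir92b led this family. It held 60.6% of the counts of the 7 loci with the seed in replicate 1 (60.2 to 60.9, exact Clopper-Pearson 95% limits) and 66.5% in replicate 2 (66.1 to 66.9). Mir92-1, of the same cluster as Mir17, had 3424 and 2910 CPM, and Mir363 had 956 and 1050 CPM. Mir25, of the same cluster as Mir106b, had 597 and 561 CPM, Mir32 had 289 and 296 CPM, and Mir92-2 had 225 and 212 CPM. Mir367 had 0 counts in replicate 1 and 1 in replicate 2. The range of Mir92b overlapped that of no other locus with this seed, all of which were lower in both libraries. Mir92-1 and Mir92-2 encode the identical miR-92a-3p, whose plain reads are in neither count, so the share of Mir92b among counted reads is not its share among mature strands. The whole family held 1.45% ± 0.0767 of all counts (SD, n = 2).

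**Figure D4:**
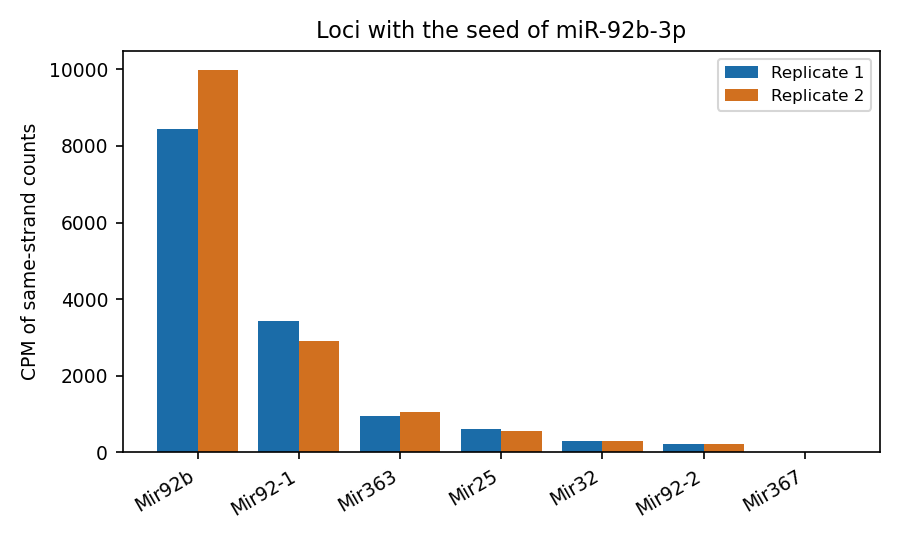
CPM of same-strand counts of the 7 loci with the seed of miR-92b-3p in replicate 1 (blue) and replicate 2 (orange). Mir92b is highest in both libraries at 8440 and 9987 CPM, and Mir367 has 0 and 1 counts.

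The replicates differed most at the abundant loci in terms of counting error. In a two-sided exact binomial test conditional on the scaled library sizes, with Benjamini-Hochberg adjustment across 466 loci, Mir137 was 1.38-fold higher in replicate 1 (95% exact interval 1.36 to 1.41, adjusted p = 1.18e-320). Mir92b was 1.24-fold higher in replicate 2 (1.22 to 1.26, adjusted p = 1.39e-172). The other 5 loci did not pass. Over all 466 loci, 38.0% passed, 18.7% higher in replicate 1 and 19.3% higher in replicate 2. With total counts only, 61.9% of the passing loci were higher in replicate 1, in place of 49.2%. Among the 91 loci whose mean reached 1000 CPM, 87.9% passed, so a call at the level of Mir137 and Mir92b is usual. The test compares 2 libraries of 1 group and takes in no spread between samples.

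At full depth 0 of the 7 loci and 19.1% of the 466 loci differed at least 1.5-fold between the replicates, and nothing particular to the 7 loci is read from this. With replicate 1 thinned to equal depth in 1 random draw, Mir9-2 had a log2 ratio of -0.69, which is past 1.5-fold. It rested on few counts and did not pass the exact test (adjusted p = 0.537). After TMM scaling, log2 ratios of replicate 1 to replicate 2 had a median of -0.07 over the 7 loci and -0.0041 over the 466. Of the 91 loci at 1000 CPM or more, 10 were at least as far apart as Mir137, itself included, and 5 of these were higher in replicate 1, namely Mir7b, Mir181b-2, Mir541, Mir342 and Mir137. At least as far apart as Mir92b were 18, itself included. The SD of the log2 ratio over the 91 loci was 0.31, against log2 ratios of 0.47 for Mir137 and -0.31 for Mir92b.

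The ratio of Mir137 to Mir92b within a library needs no scaling between libraries. It was 1.10 in replicate 1 (95% exact interval 1.08 to 1.11) and 0.641 in replicate 2 (0.629 to 0.652), and the order of these loci reversed between the replicates. Mir9-3 was 1.08-fold higher in replicate 1 (1.01 to 1.17), which fell short of the threshold after adjustment (adjusted p = 0.0839 by the exact test), but it passed with total counts only (adjusted p = 0.00278 by the exact test, log2 ratio 0.18). The intervals for the 4 low loci were wide, from 0.598 to 1.63 for Mir124a-2, 0.342 to 2.83 for Mir124a-1, 0.254 to 3.42 for Mir124a-3 and 0.234 to 2.24 for Mir9-2, so a difference of 1.5-fold was not detectable at this depth.

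**Figure D5:**
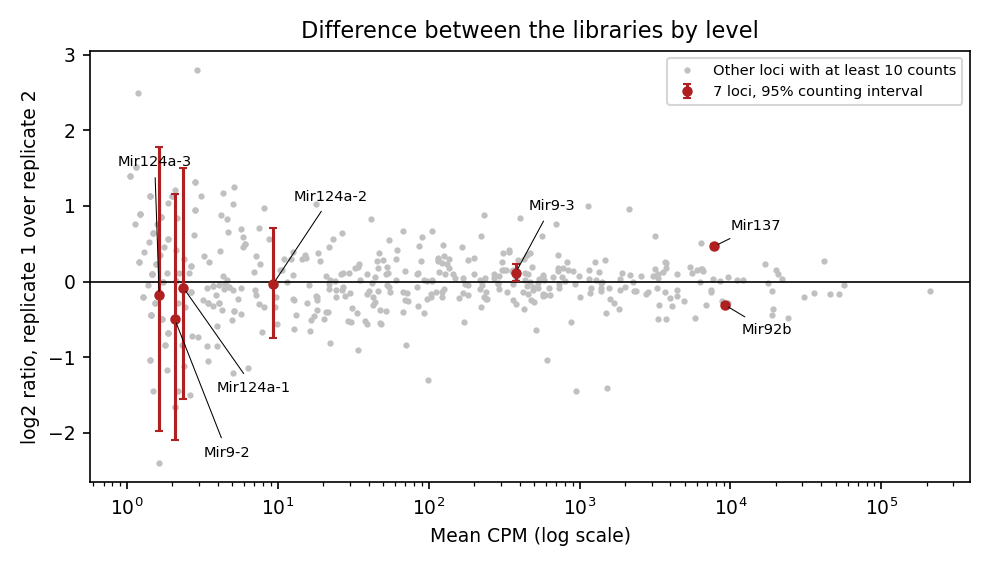
log2 ratio of replicate 1 to replicate 2 against mean CPM (log scale), with the 7 loci in red and their 95% exact counting intervals, and other loci with at least 10 counts in grey. Mir137 lies above the line of equal level and Mir92b below it, while the 4 loci under 10 CPM have intervals that span the line.

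Other loci, listed here as linked to neural progenitors or to neurons, gave the setting for these differences. All 19 progenitor-linked loci had a row, and 16 reached 100 CPM in both replicates, led by Mir17 (41984 ± 6815 CPM), Mir93 (20765 ± 1745 CPM) and Mir20a (16879 ± 2464 CPM), from clusters known for promoting proliferation. The same exact test called 10 higher in replicate 1 and 5 higher in replicate 2, leaving 4 uncalled, with a median log2 ratio of 0.10. Over all 466 loci 38.0% were called, and 87.9% of those whose mean reached 1000 CPM, and the median level of this list was 1391 CPM. All 28 neuron-linked loci had a row, and 19 reached 100 CPM, led by Mir181c (17644 ± 364 CPM), Mir135b (11089 ± 478 CPM) and Mir181d. Of the 27 tested, it called 11 higher in replicate 1 and 2 higher in replicate 2, leaving 14 uncalled, with a median log2 ratio of 0.08. Over all 466 loci 18.7% were called higher in replicate 1 and 19.3% higher in replicate 2. Mir92b, linked to progenitors, was higher in replicate 2, as were 5 called loci of the progenitor-linked list, whereas 10 were higher in replicate 1. Several of the 10 lie in the same cluster, such as Mir17 and Mir92-1, so the loci are not independent and the majority is not read further. The majority in the neuron-linked list is not read further either.

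Loci that mark other cell types were measured in the same way. The summed level of 19 such loci was 25292 CPM in replicate 1 and 32599 CPM in replicate 2, of which the endothelial Mir126a made up 16256 and 21170 CPM. Of 15 tested, 8 were called higher in replicate 2, against 1 in replicate 1, and 6 were uncalled, where 19.3% and 18.7% of all 466 loci were called in these directions. Calls depend on level, as 87.9% of loci whose mean reached 1000 CPM were called. Some markers stand for the same cell type, such as the mural Mir143 and Mir145a. The loci are thus not independent, and the split is not read further. Mir10a, Mir10b and the Mir196 loci of hindbrain and spinal cord summed to 620 and 711 CPM. Of the 3 muscle loci with a row, Mir206 had 75 and 31 counts, or 14.7 and 10.6 CPM. Mir1a-1 and Mir133a-1 had 0 counts in both libraries, and as background both have further copies in the genome, so a 0 there sets no limit on their mature strands. The liver locus Mir122 had 58.9 and 139 CPM. The part of these cell types in the differences of Mir137 and Mir92b was not tested.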

How the data were processed

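Values are raw read counts per gene, deposited by the authors as 1 table per sample on assembly mm10 with annotation M4, per the text file that accompanies each table. The sources used here name no aligner, trimming or filter. A table has 3 count columns, and the first equals the sum of the others in 3946 of 3946 rows, from which they were read as unstranded, same-strand and opposite-strand counts. The 4 summary rows stayed out of totals. Same-strand counts were 45.7% and 42.8% of the counted, unmapped, multimapping and no-feature reads together.

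Symbols and coordinates came from GENCODE M21 on GRCm38, matched by ID without version for 1894 of 1973 rows. Of the 7 loci, 4 kept their ID version, and Mir9-2, Mir124a-3 and Mir137 did not, so their boundaries may differ from those counted. Hairpins were compared on 1 strand with the 1005 of the RefSeq table (GRCm38.p6), which is incomplete.

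Loci with at least 10 counts in total entered an exact conditional binomial test (scipy 1.17.1), with Benjamini-Hochberg adjustment at 0.05. The test was given library sizes scaled by TMM (edgeR 4.0.16). It was tried on simulated Poisson counts, which hold no spread between replicates, so that trial does not cover such spread. edgeR could fit no contrast in 1 group. Log2 ratios use a pseudocount of 0.5 CPM, and fold ratios and their intervals use none. Alternatives tried were size factors of DESeq2 1.42.0, unscaled totals, other count minimums, unstranded counts, thinning, other denominators and other windows. The loci named are the 7, loci with their mature strands or seeds, 2 above and 2 below each of Mir92b, Mir137 and Mir9-3 in level, and the 3 highest of each list. Mir18a and Mir92a-1 of the lists are Mir18 and Mir92-1 in GENCODE. The 7 loci and the lists were chosen with earlier results of these data known.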

Additional observations from a re-analysis of the deposited data

Results flagged for a closer look

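Signal lay on strands that the comparisons did not use. The row of Gm25641 held 247 counts in replicate 1 and 132 in replicate 2 on the opposite strand, which is the strand of Mir9-1, against 0 on its own. Mir124a-3 held 8 and 6 opposite-strand counts, and Mir9-3 held 4 in replicate 1. Each of these values is above the limit of 3 counts that a count of 0 allows.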

How the results depend on the processing

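The number of loci that differed between the libraries was 177, and it stayed between 166 and 183 with DESeq2 size factors, total counts only, no filter, at least 50 counts, unstranded counts and thinning. Of 27 log2 ratios of the 7 loci under other normalization, strand or depth settings, 23 kept their direction and their side of the threshold. Mir9-3 passed it with total counts only (0.18). Mir124a-2 changed sign with total counts only (0.0333) and with thinning (0.0203), as did Mir124a-1 with thinning (0.0927), none of them past the threshold. Mir124a-3 fell under the count minimum after thinning and has no value there. The combined share of the 7 loci was 0.962% with multimapping reads in the denominator and 2.21% without Mir99a, in place of 1.74%, by construction of the denominators, and 1.68% to 1.81% when either replicate was left out. The 0.962% leaves any multimapping reads of the 7 loci out of the numerator. Mir124a-3 stood at 3.37 CPM with unstranded counts. With windows of 18 nt and 25 nt the share of windows found in another hairpin was 58.2% and 37.5% for Mir9-2 and 23.3% and 4.55% for Mir9-3, and 0 for Mir137 and Mir92b. Adding the opposite-strand counts of Gm25641, chosen after seeing the data, gave a summed miR-9 level of 426 CPM in place of 379 CPM. No paired analysis was possible because the series has 1 group. Depth limits the loci under 10 CPM, and the exclusion of multimapping reads limits every statement on mature miR-9 and miR-124.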
